A study of Danio rerio with 15 samples.

Results

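The step from 16 to 24 hours post-lesion (hpl) was examined in zebrafish Müller glia, the radial glial cells of the retina. It was defined by the array titles, as the 3 arrays titled 24 hpl against the 3 titled 16 hpl, which are 6 of the 15 arrays of the series. All 15502 probe sets other than Affymetrix controls entered the comparison. The groups used were Müller glia from lesioned retinas at 24 hpl and at 16 hpl, and, for the neighbouring steps and the time course, at 36 hpl and 8 hpl and from unlesioned, non-light-treated fish (0 hpl). Every fish, the unlesioned ones included, was 5 to 6 months old and carried the transgene Tg(gfap:GFP)mi2002, in which the promoter of the glial gene gfap drives GFP. GFP-positive cells were sorted by flow cytometry from dissociated retinas, 20 ng of total RNA was amplified linearly, and each of 3 biological replicates per time was hybridised to its own array. A sort on GFP keeps any cell that is green, so cells that inherit or keep the protein stay in the gate. Whether fish were pooled for a replicate is not given in the sources used here.

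In the fish retina Müller glia answer the loss of photoreceptors by turning on genes of a progenitor state, re-entering the cell cycle and producing neurons. Before a cell can copy its DNA, the origin recognition complex loads the ring-shaped MCM helicase onto replication origins, cyclin D and cyclin E kinases lift the block set by the retinoblastoma protein, and enzymes such as ribonucleotide reductase supply deoxynucleotides. The sliding clamp PCNA and the single-strand binder replication protein A (RPA) then work at the replication fork, and genes of chromosome segregation usually follow later in the cycle. In zebrafish the proneural factor Ascl1a is required for this response, and Notch ligands and Id factors are among its regulators.

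Expression is given as log2 RMA values, so a difference of 1 is a 2-fold change, and each difference is 24 hpl minus 16 hpl with its standard error (SE) from a limma model fitted to all 15 arrays. A probe set was called, and is said to have risen or fallen, when its adjusted p (Benjamini-Hochberg, over the 15502 probe sets) was under 0.05. Array medians lay between 4.55 and 4.59 at 24 hpl and between 4.48 and 4.52 at 16 hpl, a difference of 0.06 (two-sided exact permutation test, p = 0.1, the smallest that 3 against 3 arrays allow). Correlations across probe sets lay between 0.989 and 0.991 for arrays of the same time and between 0.983 and 0.990 for pairs of a 24 hpl and a 16 hpl array. Gene names exist here only for probe sets in the authors' deposited table, all of which changed at least 2-fold against 0 hpl at some time. Counts over named genes therefore describe 2331 such genes, not the genome. The 16 and 24 hpl arrays entered that filter, so the direction of named genes in this step is not independent of it. Of these 2331 genes 1160 (49.8%) had a difference above 0 and 1171 below, and 494 had an unadjusted p under 0.05 in limma. Over all 15502 probe sets 8520 (55.0%) lay above 0 and 6982 below, and 1687 had such a p.

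The label was checked against marker genes. The Müller glial glutamine synthetase gene glula had 10.91, 11.09 and 10.94 at 24 hpl, against 11.09, 11.02 and 10.94 at 16 hpl, and its mean exceeded that of 99.3% of probe sets at both times. Of the other named glial markers, rlbp1a, aqp1a.1 and cahz had means above 95.3%, 96.2% and 95.3% of probe sets at 24 hpl and above 97.4%, 97.4% and 96.3% at 16 hpl. The glial marker s100b did not follow them, with means of 3.48 ± 0.24 at 24 hpl and 3.58 ± 0.23 at 16 hpl, above 29.5% and 34.2% of probe sets. The rod transducin gene gnat1 averaged 7.19 ± 0.34 at 24 hpl and 7.54 ± 0.06 at 16 hpl (SD, n = 3 each), above 81.8% and 84.0% of probe sets, and the amacrine gene gad1b lay above 81.9% and 88.1%. The other named amacrine marker, gad2, lay lower, above 62.3% and 66.5%. The named cone markers ran from 38.8% (opn1sw1) to 74.4% (gnat2) at 24 hpl, and from 38.8% to 78.7% for the same genes at 16 hpl. The bipolar marker vsx1 was above 37.4% at 24 hpl and 44.3% at 16 hpl. In the same order, the pigment epithelium marker rpe65a was above 57.3% and 59.3%, and the endothelial marker kdrl above 59.5% and 74.3%. These ranks are rough, because probe sets differ in affinity. Of the markers written for ganglion cells, microglia and red blood cells none could be matched to a named probe set here, and neither could gfap.

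The step was small. Of the 15502 probe sets 87 were called, 0.561% of those tested, with 45 rises (0.290%) and 42 falls (0.271%). In the same model 1332 (8.59%) were called between 8 and 16 hpl, with 849 rises (5.48%) and 483 falls (3.12%). Between 24 and 36 hpl there were 797 (5.14%), with 482 rises (3.11%) and 315 falls (2.03%). These steps share arrays with the one described here. The change in this step differed from that of the step before for 68 probe sets (0.439%) and from that of the step after for 131 (0.845%). The median difference over all probe sets was 0.03, the median over the 45 rises 1.22 and over the 42 falls -0.89. At least 2-fold differences were found for 30 of the rises and 12 of the falls. All 87 probe sets had 3 arrays at 24 hpl outside the range of the 3 at 16 hpl, which was also true of 19.4% of all probe sets (10.4% higher and 8.96% lower at 24 hpl). The plot of all probe sets shows the calls at the edges of a narrow cloud.

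**Figure D1:**
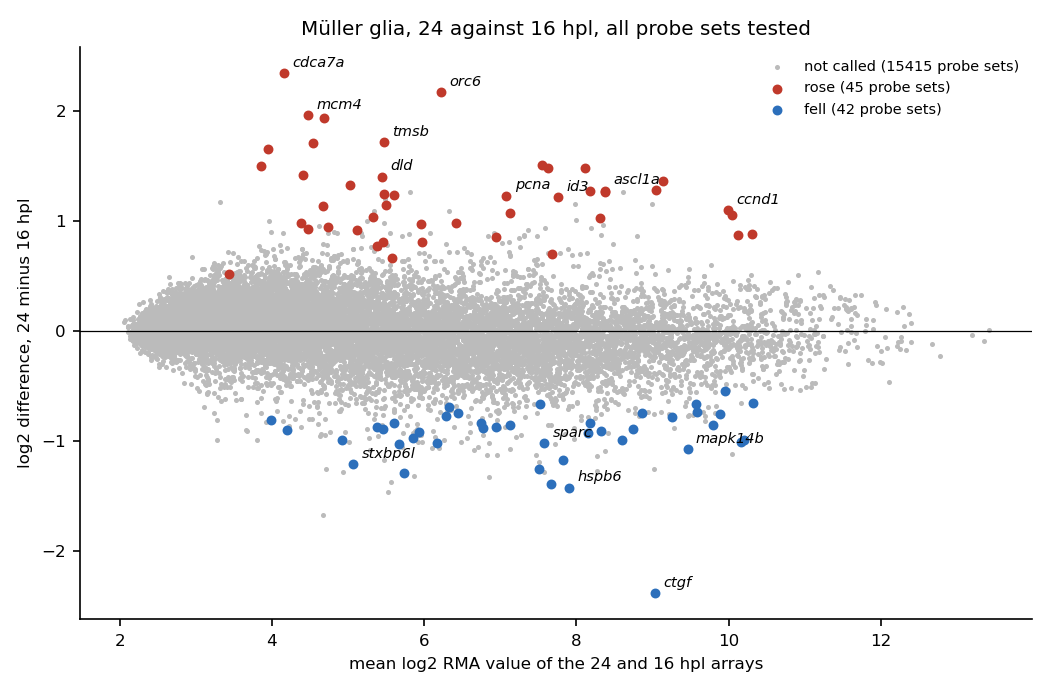
Log2 difference of 24 minus 16 hpl (vertical axis) against the mean log2 RMA value of the 6 arrays (horizontal axis) for all 15502 probe sets. Red points rose (45) and blue points fell (42) at an adjusted p under 0.05, and grey points were not called. The largest rise is cdca7a at 2.35 and the largest fall ctgf at -2.39.

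After cdca7a, which is described below, the largest rises were those of the replication licensing genes orc6, mcm4 and mcm2. The origin recognition subunit orc6 had 7.30, 7.21 and 7.41 at 24 hpl, against 4.77, 5.36 and 5.28 at 16 hpl. Every 24 hpl array lay more than 1 log2 unit above every 16 hpl array, and the difference of 2.17 ± 0.20 (SE) had the smallest adjusted p among the named genes that rose, 0.000241. As these are bulk samples of sorted cells, a change in the share of cells that express a gene and a change in RNA per cell cannot be told apart, here or for any other gene below.

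The MCM subunits followed the same order of groups. The helicase subunit gene mcm4 had 5.65, 5.11 and 5.63 at 24 hpl, against 3.07, 3.82 and 3.59 at 16 hpl (difference 1.97 ± 0.24, adjusted p = 0.00117). Its partner mcm2 had 6.03, 5.12 and 5.81 at 24 hpl, against 3.35, 3.47 and 4.33 at 16 hpl (1.94 ± 0.29, adjusted p = 0.00615). For mcm5 the values were 4.70, 4.38 and 5.25 at 24 hpl, against 3.07, 3.14 and 3.16 at 16 hpl (1.66 ± 0.25, adjusted p = 0.00521). The second 24 hpl array was the lowest of its group for these 3 genes, and still above every 16 hpl array. The other MCM genes named here missed the threshold: mcm7 had 6.84, 5.96 and 5.63 at 24 hpl, against 5.36, 5.12 and 5.34 at 16 hpl (0.86 ± 0.28, adjusted p = 0.24), and mcm3 had 5.36, 5.65 and 6.06, against 5.02, 4.71 and 5.05 (0.76 ± 0.25, adjusted p = 0.25). Their groups did not overlap. No probe set used here carries the name mcm6.

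Called next to the helicase genes were those of the clamp and of single-strand binding. The sliding clamp gene pcna had 7.88, 7.48 and 7.72 at 24 hpl, against 6.47, 6.30 and 6.62 at 16 hpl, a difference of 1.23 ± 0.14 (adjusted p = 0.00117). The RPA subunit genes rpa3 (1.07 ± 0.22, adjusted p = 0.038) and rpa2 (0.66 ± 0.13, adjusted p = 0.036), and a second origin recognition subunit gene, orc4 (0.92 ± 0.16, adjusted p = 0.015), completed the called members of the DNA replication list. Their values at 24 hpl were 7.71, 7.38 and 7.91 for rpa3, 6.04, 5.89 and 5.80 for rpa2 and 5.47, 5.81 and 5.45 for orc4. At 16 hpl they were 6.41, 6.94 and 6.43 for rpa3, 5.20, 5.21 and 5.32 for rpa2 and 4.71, 4.76 and 4.52 for orc4. Each group of 3 was clear of the other, by the least for rpa3 and rpa2.

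**Figure D2:**
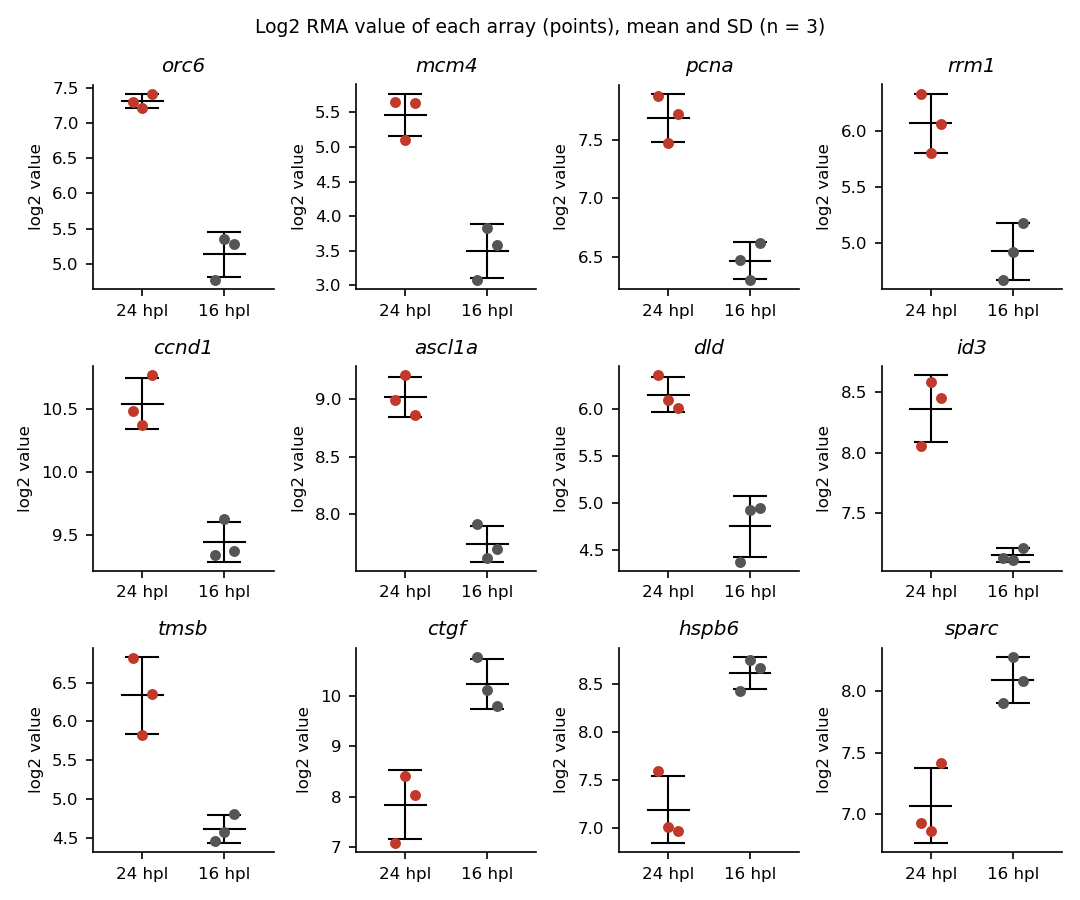
Log2 RMA value of each array for 12 called genes, with 24 hpl left (red points) and 16 hpl right (grey points) in every panel; the long bar is the mean and the short bars are 1 SD (n = 3). Vertical axes differ between panels and do not start at 0. In every panel the 3 arrays of one time lie wholly above the 3 of the other: 9 genes are higher at 24 hpl and ctgf, hspb6 and sparc are lower.

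In all, 8 of 27 named members of the DNA replication list rose (29.6%) and none fell, against 1.24% and 1.07% of all named genes. The list's median difference was 0.60, against -0.00 over the named genes and 0.03 over all probe sets. Of the 27 members 26 lay above 0, against 1160 of the 2331 named genes. In 20 (74.1%) all 3 arrays at 24 hpl lay above all 3 at 16 hpl. That held for 12.7% of all named genes and 10.4% of all probe sets. High values at 24 hpl can meet the 2-fold filter by which members were named, so these shares are not independent of it. The number above 0 was 27 after a second quantile normalisation, 25 after median centring and 24 after scaling to the hybridisation controls. Among the members not called, the largest difference was that of uhrf1, which brings the maintenance methyltransferase to new DNA (1.16 ± 0.35). The lowest was that of pole3, a small subunit of DNA polymerase epsilon (-0.08). Leaving out 1 array left 5 or 6 of the 8 calls: 5 without 24 hpl replicate 2, 16 hpl replicate 1 or 16 hpl replicate 3, and 6 without any of the other three. Such fits tend to have larger errors whichever array is left out. A lost call, here or below, therefore need not mean that it rested on that array. The genes orc6, mcm2, mcm4, mcm5 and pcna were called in all 6 of these fits. The call of rpa2 was lost in every one (adjusted p up to 0.207), that of rpa3 in 5 (up to 0.186) and that of orc4 in 4 (up to 0.098).

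**Figure D3:**
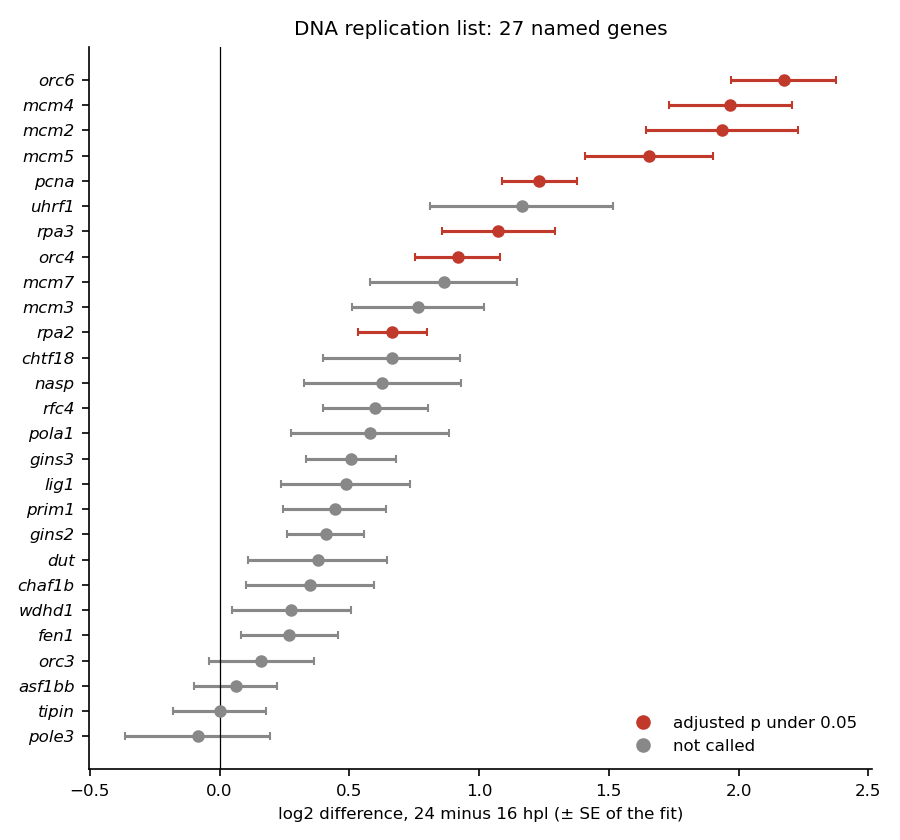
Log2 difference of 24 minus 16 hpl (points) with the SE of the fit (bars) for the 27 named members of the DNA replication list, sorted by size. Red members were called at an adjusted p under 0.05 (8) and grey ones were not. The members run from orc6 at 2.17 to pole3 at -0.08, with 26 above 0.

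Among 17 named genes of deoxynucleotide synthesis only 1 was called, a rise (5.88%, against 1.24% of all named genes). It was rrm1, the large subunit of ribonucleotide reductase, which had 6.34, 5.81 and 6.07 at 24 hpl, against 4.67, 4.93 and 5.18 at 16 hpl (1.14 ± 0.19, adjusted p = 0.0102). The groups were apart by more than 0.6, yet the call was lost without 16 hpl replicate 1, 16 hpl replicate 2 or 24 hpl replicate 1 (adjusted p up to 0.0692). Thymidylate synthase, tyms, had 5.32, 5.13 and 4.84 at 24 hpl, against 4.17, 4.23 and 4.01 at 16 hpl, and missed the threshold (0.96 ± 0.21, adjusted p = 0.0533). The small reductase subunit rrm2 was at 0.87 ± 0.20 (adjusted p = 0.0882). The list was spread around 0, with a median of 0.03, 10 members above 0 and 7 below.

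Among regulators of the G1 to S transition cyclin D1, the activator of the G1 kinases Cdk4 and Cdk6, rose. The brighter of its 2 probe sets had 10.49, 10.38 and 10.77 at 24 hpl, against 9.34, 9.63 and 9.37 at 16 hpl (1.1 ± 0.17, adjusted p = 0.00649), and the other gave 1.28 ± 0.17 (adjusted p = 0.00286). No array of one time reached the range of the other. The brighter probe set lost its call without 16 hpl replicate 1 (adjusted p = 0.0505), and the other kept it in all 6 such fits. No other of the 18 named members was called, so that 5.56% rose, against 1.24% of all named genes. The retinoblastoma gene rb1 differed by 0.87 ± 0.19 (adjusted p = 0.063), cdk2 by 0.67 ± 0.15 (adjusted p = 0.055), cyclin E1, ccne1, by 0.85 ± 0.23 (adjusted p = 0.145) and cyclin A2, ccna2, by 0.35 ± 0.15 (adjusted p = 0.41). The stress-induced growth arrest genes of the list lay on both sides. The highest difference of the 18 was that of gadd45ga (1.15 ± 0.33, adjusted p = 0.182), and the lowest that of gadd45ab, which had 4.69, 4.62 and 4.91 at 24 hpl, against 5.76, 5.71 and 6.00 at 16 hpl (-1.08 ± 0.26, adjusted p = 0.0939).

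Of 40 named members of the mitosis and G2/M list none was called, where 1.24% of all named genes rose and 1.07% fell. At such shares a list of this size can lack calls, so the count says little about these genes. In the limma fit 6 had an unadjusted p under 0.05, all higher at 24 hpl. Over all named genes 494 of 2331 had such a p, 232 of them higher at 24 hpl. The list's median difference was 0.20, with 33 members above 0 and 7 below. Its median value at 16 hpl was low, at 3.98, against 6.79 over all named genes. The ubiquitin-conjugating enzyme gene ube2t had the largest difference (0.71 ± 0.21, adjusted p = 0.189). The spindle kinase gene aurka differed by 0.54 ± 0.16 (adjusted p = 0.184), and the mitotic kinase cdk1 and its partner ccnb1 by 0.44 ± 0.17 each (adjusted p = 0.34 and 0.36). The spindle checkpoint kinase ttk, which has a known part in fish regeneration, had 3.53, 3.46 and 3.75 at 24 hpl, against 3.52, 3.61 and 3.71 at 16 hpl, and its groups overlapped wholly.

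The largest rise of all named genes was that of cdca7a, whose mammalian relative works with the remodeller HELLS in DNA methylation. The gene is not in the chromatin list below. It had 5.66, 4.71 and 5.65 at 24 hpl, against 2.74, 3.02 and 3.22 at 16 hpl (2.35 ± 0.28, adjusted p = 0.00117), so that its lowest 24 hpl array was well above its highest 16 hpl array. Of the 16 named members of the chromatin and DNA methylation list 2 rose (12.5%, against 1.24% of all named genes) and none fell, and both encode de novo DNA methyltransferases. The first, dnmt3ba, had 4.82, 4.96 and 4.82 at 24 hpl, against 3.94, 3.75 and 3.97 at 16 hpl (0.98 ± 0.17, adjusted p = 0.0112). The second, dnmt3bb.3, had 7.44, 7.18 and 7.51, against 6.42, 6.23 and 6.92 (0.85 ± 0.18, adjusted p = 0.0472). The groups of both were separate, narrowly so for dnmt3bb.3, which was called in 1 of the 6 fits without 1 array (adjusted p up to 0.233). The call of dnmt3ba was kept in 3 of them (up to 0.0769), and that of cdca7a in all 6. The remodeller gene hells itself differed by 0.59, short of the threshold.

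Of the 11 named genes of the p53 and DNA repair list only rpa2, already given, was called (9.09% rises, against 1.24% of all named genes), and 8 of the 11 were above 0 (median 0.24).

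Among 31 named members of the Müller glia reprogramming list 3 rose (9.68%, against 1.24% of all named genes) and none fell, with a list median of 0.13. The proneural factor ascl1a had 8.99, 9.21 and 8.86 at 24 hpl, against 7.91, 7.61 and 7.69 at 16 hpl (1.28 ± 0.22, adjusted p = 0.0148). The Notch ligand dld, deltaD, had 6.36, 6.1 and 6.01, against 4.38, 4.93 and 4.95 (1.40 ± 0.23, adjusted p = 0.0102). The gene id3, which encodes a helix-loop-helix protein that blocks DNA binding by its partners, had 8.05, 8.59 and 8.45, against 7.12, 7.11 and 7.21 (1.22 ± 0.16, adjusted p = 0.00234). For all 3 the 24 hpl arrays were clearly the higher ones. They differed in how many of the fits without 1 array kept the call. That of id3 was kept in all 6 fits without 1 array, and that of dld was lost without 24 hpl replicate 1 or 16 hpl replicate 1 (adjusted p up to 0.0628). That of ascl1a was kept in 1 fit, without 24 hpl replicate 3, and lost in the other 5 (up to 0.0895), although its difference stayed between 1.19 and 1.36.

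The 3 genes had different histories, which the plot of mean values over time shows. Over 0, 8, 16, 24 and 36 hpl ascl1a averaged 4.93, 6.62, 7.74, 9.02 and 9.60, so that the step at 24 hpl continued a climb already called between 8 and 16 hpl (1.12, adjusted p = 0.00565). For dld the averages were 5.27, 4.12, 4.75, 6.16 and 6.71, with 24 hpl above the unlesioned level. For id3 they were 8.95, 8.37, 7.15, 8.36 and 8.70, and the 24 hpl value was still below the unlesioned one by 0.59 (adjusted p = 0.0105). The step of id3 at 24 hpl thus followed a called fall of the same size between 8 and 16 hpl.

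Other genes of the reprogramming panel were not called in this step. The transcription factor gene stat3 had 6.22, 6.28 and 6.37 at 24 hpl, against 6.60, 6.79 and 6.31 at 16 hpl (-0.27 ± 0.24), and the groups overlapped. The stem cell factor gene sox2 was at -0.23 ± 0.14 and the heat shock gene hspd1 at -0.19 ± 0.18. The matrix protease gene mmp9 (0.23 ± 0.49) and the stress factor gene atf3 (0.01 ± 0.26) were close to 0 against their errors, and the sign of atf3 turned under several settings. The feedback inhibitor genes socs3a and socs3b were at -0.03 ± 0.24 and -0.46 ± 0.24. Among Notch target genes her9 had 6.25, 6.49 and 6.84 at 24 hpl, against 5.53, 5.49 and 5.88 at 16 hpl (0.89 ± 0.28, adjusted p = 0.218), and her4.2 was at 0.59 ± 0.18 (adjusted p = 0.198). Within the Notch list of 10 named genes the only call was dld.

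**Figure D4:**
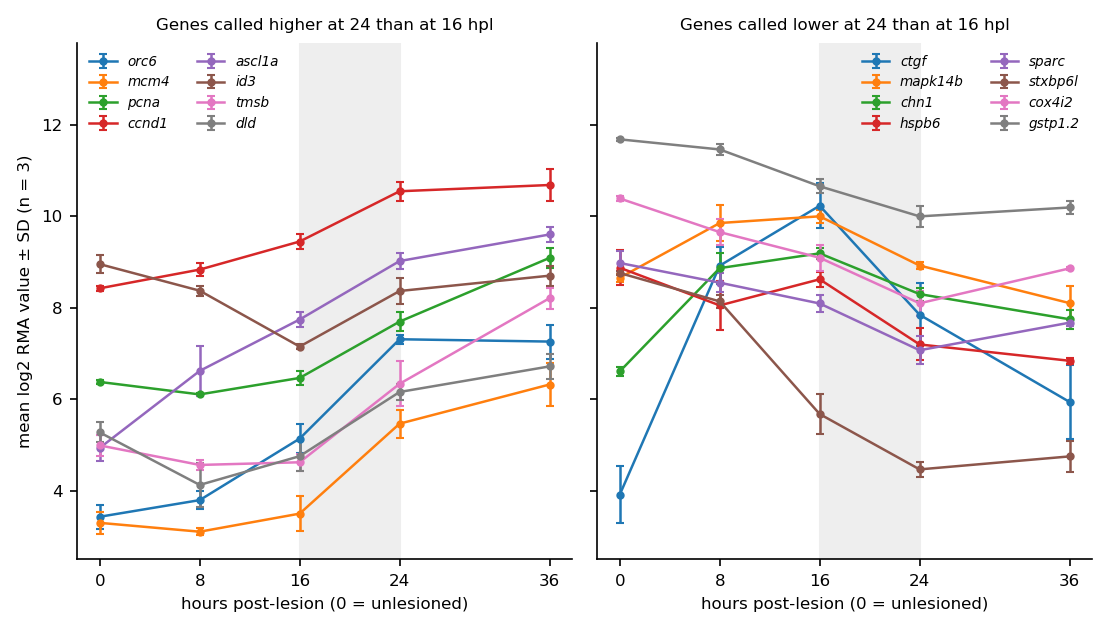
Mean log2 RMA value with SD (n = 3) at 0, 8, 16, 24 and 36 hpl for 8 genes that rose (left) and 8 that fell (right) between 16 and 24 hpl, a span shaded in grey. Within the left panel ascl1a climbs from 0 hpl on and id3 dips at 16 hpl. Within the right panel ctgf peaks at 16 hpl at 10.23 and stxbp6l declines from 0 to 24 hpl.

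Cytoskeletal genes made up the next group, with 3 rises (6.00%) and no fall among 50 named members, against 1.24% rises over all named genes. Thymosin beta, tmsb, which binds actin monomers, had 6.82, 5.83 and 6.35 at 24 hpl, against 4.46, 4.58 and 4.82 at 16 hpl (1.72 ± 0.21, adjusted p = 0.00122). The beta tubulin gene tubb5 had 8.50, 8.31 and 8.10, against 6.99, 6.85 and 6.52 (1.51 ± 0.20, adjusted p = 0.00268), and a second probe set gave 1.48. Both genes were called in all 6 fits without 1 array. Every 24 hpl array of both was at least 1 log2 unit above the highest 16 hpl array. The membrane and actin linker gene marcksl1b was at 0.88 ± 0.18 (adjusted p = 0.0401). Outside the list, the actin-associated gene tagln3b was at 1.42 ± 0.30 (adjusted p = 0.0487). Neither of these was called in any fit without 1 array (adjusted p up to 0.174 and 0.264). A pair of probe sets annotated to both alpha 1 tubulin and a clone rose by 1.27 and 1.03, and their signal cannot be assigned to a single gene here. The small GTPase gene rhoub stood opposite, with 4.48, 4.80 and 5.37 at 24 hpl, against 5.87, 6.38 and 6.53 at 16 hpl, and missed the threshold (-1.38 ± 0.33, adjusted p = 0.0922).

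The other 5 named genes that rose belong to none of these lists. The gene ankha, a relative of the mammalian pyrophosphate exporter ANKH, had 5.05, 4.12 and 4.65 at 24 hpl, against 3.04, 3.18 and 3.09 at 16 hpl (1.51 ± 0.23, adjusted p = 0.00637), and was called in all 6 fits without 1 array. The plasma membrane calcium pump gene atp2b1a had 10.62, 10.35 and 10.73, against 9.38, 9.61 and 9.54 (1.06 ± 0.16, adjusted p = 0.00649), and lost its call without 16 hpl replicate 1 only (0.0505). Its 2 other probe sets were at 1.27 and 0.94 and were not called, with larger errors. The remaining genes were the glycosyltransferase b3gnt5a (1.03 ± 0.21), the membrane protein tmem51a (0.98 ± 0.16) and rimkla (0.78 ± 0.15), whose mammalian relative makes the neuropeptide NAAG. Among the 6 fits without 1 array b3gnt5a was called in 1 (adjusted p up to 0.209), tmem51a in 3 (up to 0.0685) and rimkla in 0 (up to 0.137). A second, dimmer probe set of rimkla was at 0.49 ± 0.23 and was not called (adjusted p = 0.454).

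Where the rises started differed. Of the 45 probe sets 21 had a 16 hpl mean above and 24 a mean below that of unlesioned glia. For 13 the 16 hpl mean was below 4.51, the median of all probe sets at that time. The genes cdca7a, mcm4, mcm2, mcm5 and ankha are among these 13. Of the 45 probe sets 35 were higher at 36 than at 24 hpl and 10 lower. The 16 and 24 hpl means in the splits against 0 and 36 hpl also entered the calls, and the same splits over all probe sets were not counted. Over 0, 8, 16, 24 and 36 hpl pcna averaged 6.37, 6.1, 6.46, 7.69 and 9.09, rrm1 4.99, 5.08, 4.93, 6.07 and 7.90, and tmsb 4.99, 4.56, 4.62, 6.33 and 8.21. Against 0 hpl their 16 hpl means differed by 0.09 for pcna, -0.06 for rrm1 and -0.37 for tmsb, and they were called again between 24 and 36 hpl (adjusted p from 1.41e-05 to 3.41e-05). By contrast orc6, with 3.43, 3.79, 5.14, 7.31 and 7.26, and the brighter ccnd1 probe set, with 8.42, 8.83, 9.45, 10.55 and 10.68, were called between 8 and 16 hpl and differed by -0.05 and 0.14 after 24 hpl.

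The falls were led by the matricellular gene ctgf, a known target of Yap and TGF-beta signalling. It had 7.08, 8.41 and 8.04 at 24 hpl, against 10.77, 10.12 and 9.80 at 16 hpl (-2.39 ± 0.42, adjusted p = 0.0148). The groups lay more than 1 log2 unit apart, and the spread within each was wide. The call was lost without 24 hpl replicate 1, 16 hpl replicate 1 or 16 hpl replicate 2, at differences between -2.44 and -2.0 and an adjusted p up to 0.097. Over 0, 8, 16, 24 and 36 hpl the gene averaged 3.91, 8.92, 10.23, 7.84 and 5.94, so that the 24 hpl level was still above the unlesioned one by 3.93.

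Other falls also brought genes down from a level reached after the lesion. The stress kinase gene mapk14b, a p38, had 8.95, 8.83 and 8.99 at 24 hpl, against 10.12, 10.02 and 9.85 at 16 hpl (-1.08 ± 0.20, adjusted p = 0.018). The Rac regulator chn1 had 8.21, 8.22 and 8.46, against 9.22, 9.28 and 9.06 (-0.89 ± 0.16, adjusted p = 0.0195). The scaffold gene iqgap2 had 7.95, 7.67 and 7.97, against 8.78, 9.04 and 8.50 (-0.91 ± 0.19, adjusted p = 0.0472). For each the 3 arrays at 24 hpl were below all 3 at 16 hpl, and the means at 0 hpl were 8.65 for mapk14b, 6.61 for chn1 and 6.34 for iqgap2. In the fits without 1 array the calls of mapk14b and iqgap2 were lost in all 6 (adjusted p up to 0.0985 and 0.233) and that of chn1 in 5 (up to 0.112). Further genes of the kind were the autophagy receptor optn (-0.92 ± 0.18), the ubiquitin ligase adaptor spsb4b (-0.87 ± 0.18), the Rab effector micall2b (-0.78 ± 0.13), the lipid transfer protein cptp (-0.81 ± 0.12), the prolyl hydroxylase p4htma (-0.90 ± 0.14) and kctd12.2, whose mammalian relative is a GABA-B receptor subunit (-1.03 ± 0.21). A locus annotated as similar to OTU domain-containing protein 1 fell by 0.89 on the log2 scale. At 24 hpl cptp had 3.60, 3.68 and 3.44, against 4.39, 4.44 and 4.34 at 16 hpl, and p4htma had 3.72, 3.69 and 3.85, against 4.61, 4.66 and 4.69. These 2 genes, with 16 hpl means near or below the array median, were the only named falls called in all 6 fits without 1 array. The calls of optn, spsb4b, micall2b and kctd12.2 were kept in at most 2 (adjusted p up to 0.194). A second, dimmer probe set of kctd12.2 was at -1.01 ± 0.33 and was not called (adjusted p = 0.239).

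A second set of falls started from a 16 hpl mean already below the unlesioned one. The vesicle fusion gene stxbp6l averaged 8.76, 8.14, 5.67, 4.46 and 4.75 over 0, 8, 16, 24 and 36 hpl. At 24 hpl it had 4.56, 4.27 and 4.56, against 5.75, 6.06 and 5.21 at 16 hpl (-1.21 ± 0.20, adjusted p = 0.0102), without overlap. The matricellular gene sparc had 6.93, 6.86 and 7.42 at 24 hpl, against 7.90, 8.28 and 8.09 at 16 hpl (-1.02 ± 0.18, adjusted p = 0.0141). The respiratory chain isoform cox4i2, induced by low oxygen in mammals, had 7.84, 8.07 and 8.38, against 9.11, 9.37 and 8.80 (-0.996 ± 0.18, adjusted p = 0.0149). In both genes the groups were apart by about the spread within a group. Without 1 array stxbp6l was called in 3 of 6 fits (adjusted p up to 0.0706), sparc in 2 (up to 0.0886) and cox4i2 in 2 (up to 0.102). The calcium-binding mitochondrial gene efhd1 (-0.88 ± 0.18), the membrane glycoprotein gene gpm6ab (-0.67 ± 0.14), the detoxifying enzyme gene gstp1.2 (-0.66 ± 0.14), the glycolytic enzyme gene tpi1b (-0.55 ± 0.11) and ptmaa, a prothymosin alpha (-0.67 ± 0.14), were also lower at 24 than at 16 and at 16 than at 0 hpl. A pair of locus names, annotated as similar to the matricellular SMOC1 and to villin 1, fell by 1.18 and by 0.99 on the log2 scale. None of the genes of the last 2 sentences was called in more than 1 of the 6 fits without 1 array.

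The small heat shock gene hspb6 also had a 16 hpl mean below the unlesioned one, but its 8 hpl mean was lower still. It had 7.60, 7.01 and 6.97 at 24 hpl, against 8.43, 8.76 and 8.67 at 16 hpl (-1.43 ± 0.25, adjusted p = 0.0143), and averaged 8.87, 8.05, 8.62, 7.19 and 6.84 over 0, 8, 16, 24 and 36 hpl. The groups did not overlap, and its call was kept in 1 of the 6 fits without 1 array (adjusted p up to 0.0853).

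Of all 42 falls 24 probe sets had a 16 hpl mean above and 18 a mean below that of unlesioned glia. At 36 hpl 21 were above and 21 below their 24 hpl mean. As for the rises, the 16 and 24 hpl means in these splits also entered the calls, and no share over all probe sets was counted. Leaving out 1 array moved the calls of falls more than those of rises. Between 19 and 30 rises and between 5 and 21 falls were called in the 6 fits without 1 array, the fewest without 16 hpl replicate 1 and the most without 24 hpl replicate 3. Called in all 6 were 17 of the 45 rises and 4 of the 42 falls. Median centring gave 33 rises and 63 falls, a share of rises of 34.4% against 51.7% in the values as deposited.

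Of the 87 probe sets 71 are listed in the authors' deposited table, 37 rises and 34 falls. The authors' p-value against 0 hpl was under 0.05 for 9 of the 37 rises at 24 hpl and 3 at 16 hpl, and for 7 of the 34 falls at each time. The same count over all 3164 probe sets of that table was not made, so whether these shares are high or low is not known here.

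The list of Müller glia identity and homeostasis had 15 of 16 named members below 0, against 1171 of all 2331 named genes, with a median of -0.33. It had 2 falls, sparc and efhd1 (12.5%, against 1.07% of all named genes). The retinoid carrier gene rlbp1a had 9.63, 9.27 and 8.96 at 24 hpl, against 10.11, 9.87 and 10.10 at 16 hpl (-0.74 ± 0.17, adjusted p = 0.0814), and the water channel gene aqp1a.1 was at -0.52 ± 0.14 (adjusted p = 0.163). Glutamine synthetase, glula, was at -0.04 ± 0.15. The mean log2 value over the list lay between 7.50 and 7.80 on the 24 hpl arrays and between 7.90 and 8.2 on the 16 hpl arrays.

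Lists of markers of other cells differed among themselves. Of 23 named photoreceptor genes 20 were below 0 (median -0.34, none called, 1 with an unadjusted p under 0.05 in limma), and the mean over the list lay between 5.24 and 5.53 on the 24 hpl arrays and between 5.64 and 5.82 on the 16 hpl arrays. Of 12 genes of inner retinal neurons 9 were below 0 (median -0.24, none called, 3 with an unadjusted p under 0.05), with list means between 5.78 and 6.24 at 24 hpl and between 6.22 and 6.34 at 16 hpl. The amacrine gene gad1b had 6.5, 7.46 and 7.64 at 24 hpl, against 8.08, 8.13 and 7.94 at 16 hpl (-0.85 ± 0.28, adjusted p = 0.242). All 5 endothelial and mural genes were below 0 (median -0.38, none called, 2 with an unadjusted p under 0.05), and kdrl, the endothelial VEGF receptor, had 5.28, 4.86 and 5.50, against 6.44, 6.54 and 6.61 (-1.32 ± 0.34, adjusted p = 0.126). The 2 genes were kdrl and aqp1a.1, and aqp1a.1 is also in the Müller glia identity list. The genes cav1, rgs5a and cldn5a were at -0.38, -0.05 and -0.02. Of 6 pigment epithelium genes 5 were below 0 (median -0.10), of 8 oligodendrocyte and astrocyte genes 5 (median -0.08), of 4 microglia and leukocyte genes 2 (median -0.10) and of 2 red blood cell genes 1 (median -0.11), while both named lens and cornea genes were above 0 (median 0.13). The red blood cell gene below 0 was cahz, a glial marker in the label check, and the microglia and leukocyte list holds mmp9 of the reprogramming panel. No member of these lists was called in limma. Over all named genes only 1.24% rose and 1.07% fell, so none called in lists of the sizes in this paragraph says little. The number with an unadjusted p under 0.05 was 1 for the pigment epithelium, 1 for microglia and leukocytes and 0 for the others. The pigment epithelium gene with that p, at -0.29, is also in the Müller glia identity list. Over all named genes 494 of 2331 had such a p. The part of these other cells in the falls and in the rises was not tested.

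**Figure D5:**
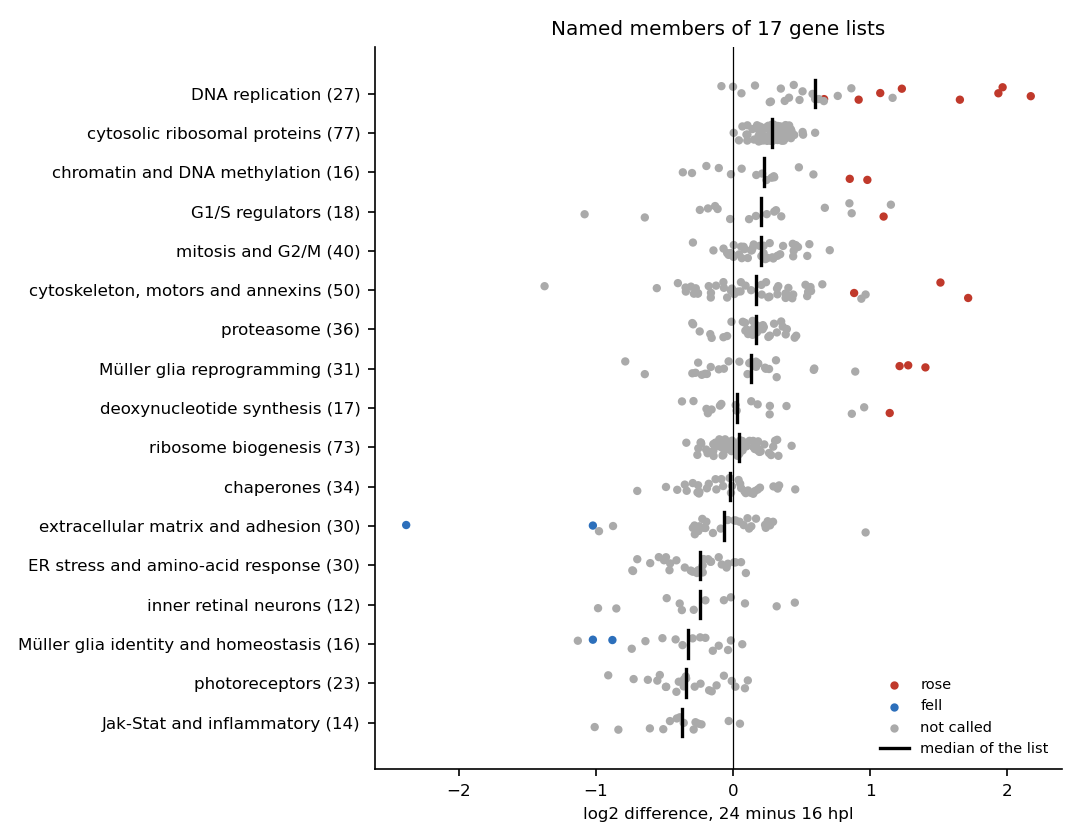
Log2 difference of 24 minus 16 hpl for each named member (points) of 17 gene lists, with the number of named members in brackets and the list median as a black bar. Red members rose and blue members fell at an adjusted p under 0.05, and grey ones were not called. The DNA replication list has the highest median, 0.60, and the Jak-Stat and inflammatory list the lowest of these 17, -0.37.

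Lists of protein synthesis and stress, here and in the next paragraph, had few or no calls. Over all named genes only 1.24% rose and 1.07% fell. Lists of these sizes can lack calls at such shares, so the absence of calls does not set them apart. All 77 named cytosolic ribosomal protein genes were above 0, against 1160 of the 2331 named genes, with a median of 0.28 and none called. Of the 77 genes 14 had an unadjusted p under 0.05 in limma, against 494 of the 2331. The largest, rps27.1, had 9.88, 10.07 and 10.26 at 24 hpl, against 9.37, 9.57 and 9.47 at 16 hpl (0.60 ± 0.16, adjusted p = 0.136). The list means overlapped between the times, at 10.71 to 10.93 on the 24 hpl arrays and 10.33 to 10.78 on the 16 hpl arrays, and 75 and 74 of the 77 were above 0 after median centring and hybridisation-control scaling. Ribosome biogenesis genes were spread around 0 (43 of 73 above, median 0.04, none called, 0 with an unadjusted p under 0.05), and 28 of 36 proteasome genes were above 0 (median 0.17, none called, 5 with an unadjusted p under 0.05).

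Of 30 genes of ER stress and the amino-acid response 26 were below 0 (median -0.24, none called, 9 with an unadjusted p under 0.05 in limma). The translocon gene sec61b was at -0.73 ± 0.21, the co-chaperone gene dnajc3a at -0.70 ± 0.21 and the ER chaperone gene hspa5 at -0.49 ± 0.17 (adjusted p from 0.179 to 0.269). Of 14 Jak-Stat and inflammatory genes 13 were below 0 (median -0.37, none called, 2 with an unadjusted p under 0.05), among them the chemokine gene cxcl12b, with 7.58, 7.89 and 7.76 at 24 hpl, against 8.63, 8.63 and 8.48 at 16 hpl (-0.84 ± 0.22, adjusted p = 0.126). Of 18 immediate early genes 13 were below 0 (median -0.13, none called, 5 with an unadjusted p under 0.05), among them egr1 at -0.77 ± 0.25 and the AP-1 subunit gene fosl2 at -0.57 ± 0.15. Chaperones had a median of -0.02 (none of 34 called, 5 with an unadjusted p under 0.05). The small heat shock gene hspb6, a called fall described above (-1.43), is not in that list. Of 15 glycolysis and hypoxia genes 12 were below 0 and 1, tpi1b, fell (6.67%, against 1.07% of all named genes).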

How the data were processed

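The authors deposited log2 expression values made by RMA, per the submitters' processing notes. Which RMA implementation was used is not given in the sources used here. Another table deposited by the authors holds, for 3164 probe sets, signed fold changes against 0 hpl (a score, negative for falls) and p-values, with no test stated per the file headers. Its folds gave the same 24 minus 16 hpl differences to 1.13e-09. It supplied the gene names: 2511 probe sets had 1 symbol, 1007 current and 983 updated through RefSeq synonyms, 521 kept as given, which made 2331 genes. Where a gene has several probe sets, the brightest over all arrays stands for it.

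The 115 Affymetrix controls were left out and dim probe sets were kept. limma 3.58.1 in R 4.3.3 (lmFit, eBayes) was fitted to all 15 arrays with 1 coefficient per time and checked on simulated data. Replicates are biological per the labels, 3 arrays a time limit the precision, and no values were left unmapped.

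Named genes were the 12 largest rises and falls, list members with the smallest p and a fixed panel. The other called genes with a symbol, and the uncalled uhrf1, pole3 and gadd45ga, were added after their values were seen. Members, the 37 lists and the tests were chosen with earlier results of these data known. A marker and a list member are not reported here. Alternatives were 3 scalings, a filter on dim probe sets, array weights, eBayes with a trend and robust options, a model of the 6 arrays, the replicate block, leaving out each array, averaged probe sets, an adjusted p under 0.01 and a 2-fold minimum.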

Additional observations from a re-analysis of the deposited data

Results flagged for a closer look

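For 11 named genes called in this step, the difference itself was tested and differed from that of a neighbouring step (limma, adjusted p under 0.05). Over all probe sets such differences were called for 0.439% against the step before and 0.845% against the step after. The steps compared share arrays, and these genes were picked as called in one of them.

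Against the step from 8 to 16 hpl, id3 and rimkla turned from falls to rises. The difference between steps was 2.44 ± 0.28 (SE) for id3, which changed by 1.22 in the later step and -1.22 in the earlier (adjusted p = 0.00327). It was 2.14 ± 0.26 for rimkla, at 0.78 and -1.37 (adjusted p = 0.00329). The signs were the other way round for ctgf, at -3.70 ± 0.73 (-2.39 later, 1.31 earlier, adjusted p = 0.0374), and for kctd12.2, at -2.01 ± 0.36 (-1.03 and 0.98, adjusted p = 0.0265). They were so too for p4htma, at -1.58 ± 0.24 (-0.90 and 0.68, adjusted p = 0.00925), and for cptp, at -1.44 ± 0.21 (-0.81 and 0.63, adjusted p = 0.00805).

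Against the step from 24 to 36 hpl, orc6 had a difference between steps of -2.22 ± 0.35 (-0.05 in the later step, 2.17 in this one, adjusted p = 0.00451). The value for ankha was -2.13 ± 0.40 (-0.62 and 1.51, adjusted p = 0.0153). The genes cox4i2, sparc and tpi1b fell in this step, and their 36 hpl means were above their 24 hpl means, with cox4i2 at 1.76 ± 0.30 (0.76 and -0.996, adjusted p = 0.00892), sparc at 1.63 ± 0.31 (0.60 and -1.02, adjusted p = 0.0166) and tpi1b at 0.97 ± 0.20 (0.42 and -0.55, adjusted p = 0.0315). Groups of 3 arrays were too small for a test of single outlying arrays.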

How the results depend on the processing

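The 87 calls (45 rises, 42 falls) became 32 (18 and 14) after hybridisation-control scaling, 545 (244 and 301) with array weights, 142 (69 and 73) in a fit on the 6 arrays alone, 24 (20 and 4) at an adjusted p under 0.01 and 42 (30 and 12) with a 2-fold minimum. Leaving out 1 array gave 24 to 51 calls, 19 to 30 rises and 5 to 21 falls. With the replicate block there were 55 (31 and 24). Whether the numbers pair the samples cannot be decided here, because deviations from the mean of so few arrays are tied to each other. Deviations of same-numbered arrays from their group means correlated at -0.16, -0.18 and 0.09, and no array correlated best with its own number. The highest correlation of deviations between the times, 0.40, was that of 24 hpl replicate 2 with 16 hpl replicate 1. The other settings gave 75 to 96 calls. The 8 DNA replication rises were 5 after hybridisation-control scaling and at an adjusted p under 0.01, and 5 to 6 without 1 array.

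Over the alternatives, the named called genes kept direction and call in 482 values and direction without the call in 266, and no called gene reversed, which their separate groups fix for the fits without 1 array. Named genes not called became called in 49 values and stayed uncalled with the same sign in 940. Among those not called, the sign turned for 4. For atf3 (0.01) the value was -0.0515 after median centring, -0.0647 after hybridisation-control scaling, -0.0268 with array weights and -0.209 to 0.232 without 1 array. For pole3 (-0.08) it was 0.00126 after a second quantile normalisation and -0.196 to 0.0473 without 1 array. Without 1 array socs3a ran over -0.122 to 0.0284 and ttk over -0.116 to 0.0271. The cause of these changes was not tested. No alternative was left out.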

Other observations

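Some probe sets outside the lists or without a single name also separated the times. Of the 87 called, 16 are absent from the authors' deposited table, 8 rises and 8 falls, and have no gene name here. A probe set annotated as a pair of hypothetical proteins had 5.10, 5.46 and 5.63 at 24 hpl, against 3.61, 3.84 and 3.62 at 16 hpl (1.71 ± 0.18, adjusted p = 0.000657), the sixth largest rise. The clone wu:fj38c09 had 9.21, 8.64 and 8.71, against 7.27, 7.23 and 7.62 (1.48 ± 0.17, adjusted p = 0.000918). Both were called in all 6 fits without 1 array. A probe set annotated to both stanniocalcin 2 and a clone fell by 1.01 on the log2 scale.

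Signalling genes outside the calls included fgf10a, with 6.40, 6.93 and 7.29 at 24 hpl, against 5.35, 6.09 and 5.91 at 16 hpl (1.09 ± 0.29, adjusted p = 0.141). The Wnt secretion gene wls had 5.91, 6.12 and 5.64, against 4.44, 5.14 and 4.81 (1.09 ± 0.34, adjusted p = 0.217). The groups of both genes did not overlap, which was also true of 19.4% of all probe sets. Their lists did not share the direction: 8 of 19 named FGF, TGF-beta and BMP genes were above 0 and 11 below (median -0.06). Of 5 named Wnt genes 3 were above 0 and 2 below.

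The array's control probe set for an EGFP variant lay between 2.90 and 3.68 on all 15 arrays, with means of 3.39 at 24 hpl and 3.18 at 16 hpl. The lower quartile of all probe sets averaged 3.30 at 24 hpl.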
